A study of Xenopus laevis with 12 samples.

Results

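The effect of Geminin on gene expression in early gastrula ectoderm is described here from 6 of the 12 arrays of the study, 3 of injected and 3 of uninjected explants, all collected at stage 10.5 of Xenopus laevis. The arrays were chosen by their stage and manipulation labels and set against each other as 3 pairs, 1 pair from each of experiments 1, 2 and 3. The injected group came from pigmented embryos whose blastomeres both received, at the 2-cell stage and into the animal hemisphere, RNA for the Geminin form labelled xGemininΔcoil, at 300 pg. The uninjected group received no RNA, and no group injected with a control RNA was analysed here, so a change brought by injection itself and a change brought by Geminin cannot be told apart. The labels do not say whether 300 pg went into each cell or each embryo. In both groups animal caps, the roof of the blastula that forms ectoderm, were cut at stage 8 to 9 and cultured in 0.7x MMR at 25 °C, and each array held RNA pooled from 80 caps. The other 6 arrays hold the same groups at stage 12, the late gastrula. They entered the normalisation, the filter on dim probe sets and the spread behind each SE and p at stage 10.5. Their own changes are used only to ask where the early change differs from the later one.

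Geminin is a nuclear protein that binds the licensing factor Cdt1 and so keeps DNA from being replicated again within a cell cycle, and it also binds chromatin and transcription regulators. In the frog embryo it is known for its part in setting aside neural tissue. These are properties of the intact protein. The injected form is labelled Δcoil, and which of these properties it keeps was not tested here. Isolated caps left alone become epidermis because their cells secrete BMP ligands, which act through Smad proteins to switch on ventral and epidermal transcription factors, among them those of the Msx, Dlx, Gata, Ventx and Id families. Caps shielded from BMP turn toward neural fate instead. Around stage 10.5 maternal transcripts are still being cleared while the first zygotic fate genes are being read.

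Median deposited intensity was 73.8, 143.1 and 69.1 in the uninjected arrays of experiments 1 to 3 and 71.4, 145.7 and 67.2 in the injected arrays. Experiment 2 thus lay on a brighter scale in both groups, and the scales were made equal by quantile normalisation before any comparison. The injected gene was read by gmnn.L, at 261, 233 and 375 in uninjected and at 5435, 10464 and 3446 in injected arrays, a rise of 4.6 ± 0.55 on the log2 scale. This signal includes the injected RNA itself. The other copy, gmnn.S, differed by 0.43 ± 0.13, with an adjusted p of 0.0527, and so did not pass. The 6 defining ectoderm probe sets summed to 2831 to 7704 in uninjected and to 1219 to 2092 in injected arrays. The sums of 4 mesoderm probe sets (62.0 to 122.7 uninjected, 91.0 to 197.0 injected) and of 8 endoderm probe sets (145.1 to 210.9 and 180.2 to 402.8) were higher in the injected array of every pair. Those of 3 germ plasm probe sets (254.9 to 660.2 and 241.8 to 487.0) and 5 blood probe sets (77.7 to 91.7 and 70.0 to 85.8) were lower in the injected array of every pair. All these sums are of deposited intensities, before normalisation. After normalisation the germ plasm genes ddx4.L and ddx25.L were at 0.006 ± 0.16 and 0.018 ± 0.23 and did not pass. The third, dazl.L, was too dim to test. Of 8 germ plasm genes tested, 0 were lower and 1 higher. The 9 blood and endothelium genes gave 0 lower and 1 higher. Sums of different probe sets cannot be set against each other. An array gives no defining marker a value of 0, and such sums hold background signal.

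Injected ectoderm had lost, by the early gastrula, transcripts of BMP-driven transcription factors, epidermal regulators, some keratins and neural border and neural plate factors. Also lower were Delta ligands, D-type cyclin and some nutrient transporters, the last with 14 of 123 carrier and ion transport genes lower (11.4%). Injected ectoderm held more of a smaller set, with members among inhibitors of apoptosis, regulators of meiosis and mitosis and RNA decay factors. Other members of these same groups were lower. Changes are given as injected minus uninjected on the log2 scale, with limma's SE for the mean of the 3 pairs. Its spread is pooled over both stages and drawn toward that of probe sets of like intensity. It is thus not the spread of the 3 pairs alone. Of 11618 probe sets tested with limma on log2(intensity + 16), 820 (7.06%) were lower and 385 (3.31%) were higher at an adjusted p below 0.05. A mean change of 2-fold was reached by 357 of the lower and 65 of the higher probe sets. With 1 probe set for each of 6146 named genes, 430 (7.0%) were lower and 236 (3.84%) higher. The counts depended on all 3 experiments: without experiment 1, 2 or 3 they were 415, 389 and 625 lower and 120, 65 and 154 higher. Genes are described below in lists by role, with up to 6 members of the smallest p named per list. Any further member was added after its value was seen. Lists and members were chosen with earlier results of these data known, so their shares describe and do not test a pathway. RNA was taken from whole caps, so fewer cells of a type and less RNA per cell cannot be told apart.

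**Figure D1:**
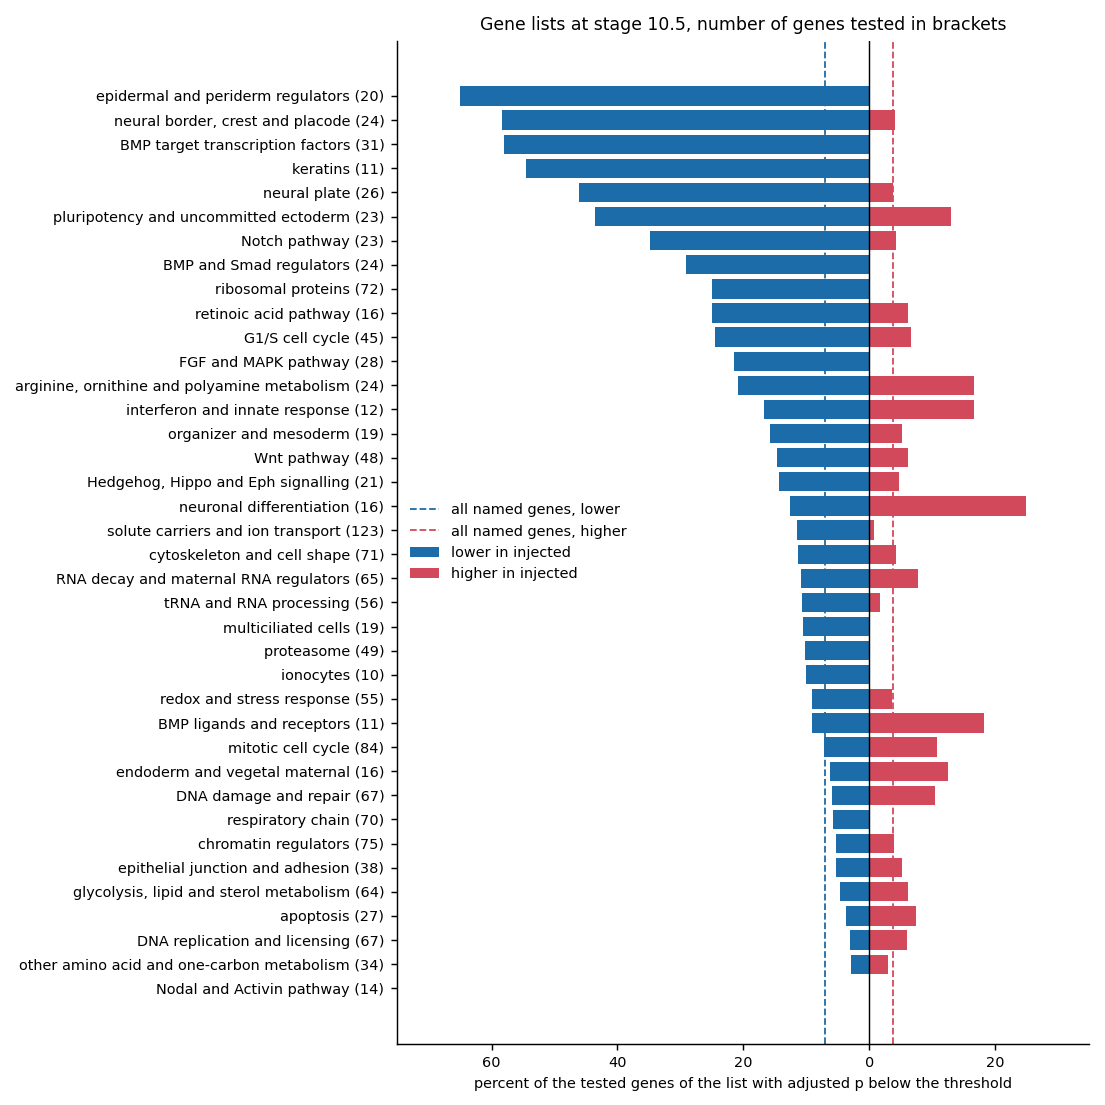
Share of the tested genes of each list (10 or more tested genes, their number in brackets) that were lower (left, blue) or higher (right, red) in injected explants at stage 10.5, in percent, 1 probe set per gene. Dashed lines mark the shares over all named genes, 7.0% lower and 3.84% higher. The bars of the epidermal, border, BMP target and keratin lists reach farthest left. The lists were chosen with earlier results of these data known.

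The BMP pathway was read from its ligands to its targets. Of 11 ligand and receptor genes tested, 1 was lower and 2 were higher, with a list median of 0.04 against 0.06 over all named genes. The lower one was bmp4.S, the ligand that holds caps to an epidermal fate, at 163, 442 and 86.0 in uninjected and 57.2, 55.6 and 30.5 in injected arrays, a change of -1.57 ± 0.25. Its partner ligand bmp2 went the other way, with bmp2.L up by 0.96 ± 0.18 and bmp2.S up by 0.64 ± 0.15. The 8 receptor genes did not pass, the receptor copies bmpr1a.S and bmpr1a.L being at -0.17 ± 0.21 and -0.15 ± 0.19. Of 24 genes that tune the pathway outside or inside the cell, 7 were lower and the others did not pass. The 7 were both copies of szl, a secreted inhibitor of the proteases that cut Chordin, both copies of bambi, a receptor decoy, the shared Smad smad4.L, the inhibitory Smad smad7.L and sfrp2.S, the gene of a secreted protein. The last, sfrp2.S, counts again among the lower genes of the Wnt list. The decoy bambi.L read 924, 2106 and 727 in uninjected and 334, 476 and 313 in injected arrays and fell by 1.69 ± 0.18, while bambi.S fell by 1.24 ± 0.19. The second szl copy, szl.S, fell by 1.91 ± 0.26. The Smad genes smad7.L and smad4.L fell, at -0.86 ± 0.20 and -0.84 ± 0.15. The call was lost, at the log2 changes in brackets, without experiment 1 or 2 for bmp2.L (0.93, 0.89) and smad7.L (-0.68, -0.74), without any 1 of the 3 experiments for bmp2.S (0.56, 0.71, 0.64), without experiment 2 for smad4.L (-0.64) and without experiment 2 or 3 for sfrp2.S (-0.78, -0.72). With the arrays of 1 experiment left out, 4 to 8 of the 24 regulators were lower and 0 or 1 of the ligand and receptor genes higher.

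Most of the transcription factors that BMP switches on were lower. Of 31 tested, 18 were lower and 13 did not pass, with a list median of -0.99, and 17 of the 18 were at least 1.5-fold lower in each pair. The homeodomain factor msx1.L, which marks ventral ectoderm and the neural border, read 333, 444 and 224 in uninjected arrays of experiments 1 to 3. In the injected arrays it read 34.2, 28.0 and 68.2, and the fall was -2.43 ± 0.25. No injected array reached the lowest uninjected one, and the other copy, msx1.S, fell, at -0.99 ± 0.17. The neighbouring homeodomain genes dlx5.L and dlx6.S fell, at -1.92 ± 0.23 and -1.9 ± 0.27. Among the Ventx repressors of dorsal fate, ventx1.1.L read 347, 462 and 298 and then 62.0, 121 and 118, a change of -1.77 ± 0.20, and ventx2.1.L, ventx2.1.S and ventx2.2.L fell, at -1.25 ± 0.23, -1.15 ± 0.17 and -1.5 ± 0.28. These Ventx genes form a gene cluster of like sequence, so signal may be shared among their probe sets. Smaller falls were seen for the Id proteins, which keep basic helix-loop-helix factors from binding DNA, with id3.S at -0.69 ± 0.11 and id2.L at -0.94 ± 0.14. In xbp1.L, a factor of secretory cells and of the unfolded protein response, the fall was -1.34 ± 0.14. Among the 13 that did not pass were gata3.S, at -0.88 ± 0.29 with an adjusted p of 0.0831, and hes1.L, the one with the largest positive value, at 0.83 ± 0.31 with an adjusted p of 0.118. At the log2 changes in brackets, the threshold was missed without experiment 2 for msx1.S (-0.84) and without experiment 1 or 2 for ventx2.1.L (-1.16, -1.01) and ventx2.2.L (-1.28, -1.3). With 1 experiment left out, 14 to 20 of the 31 were lower.

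**Figure D2:**
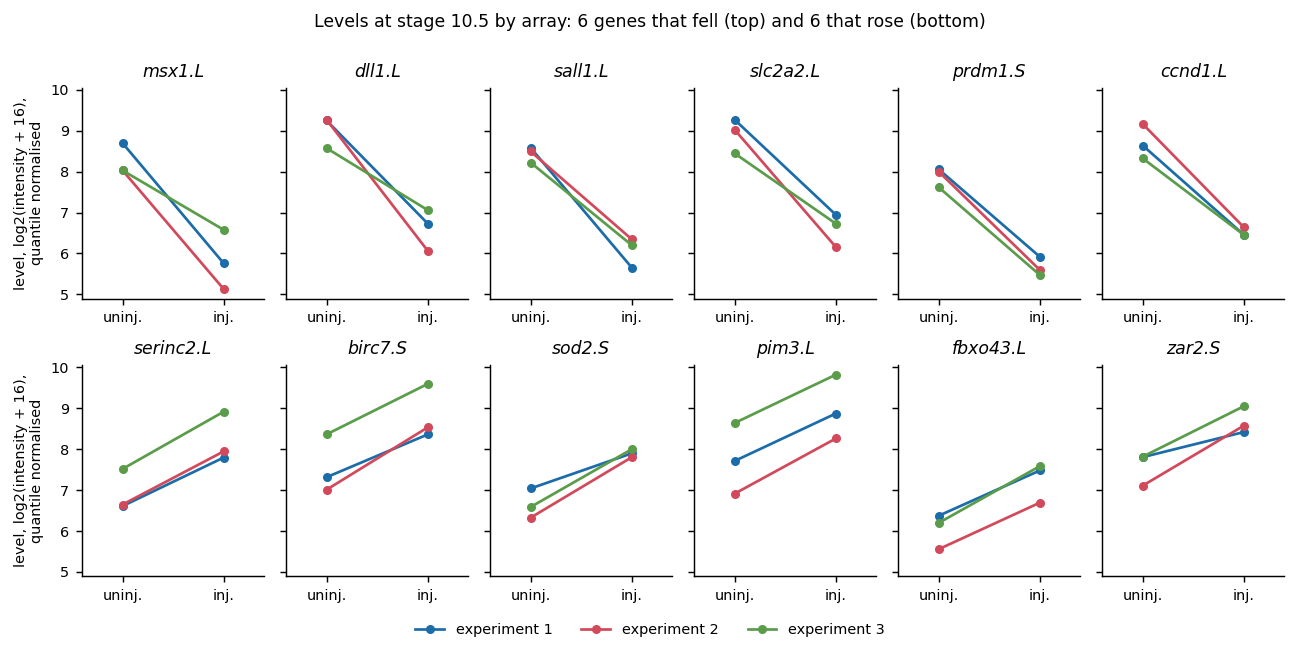
Normalised level, log2(intensity + 16), of 6 genes that fell (top) and 6 that rose (bottom), at stage 10.5 in uninjected and injected explants, with a line for each of the 3 experiments. Every line of the upper row falls and every line of the lower row rises.

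Epidermal differentiation was represented by regulators and by the keratins they feed. Of 20 epidermal and periderm regulators, 13 were lower and 7 did not pass, with a median of -1.33, and 12 of the 13 were at least 1.5-fold lower in every pair. This list shares genes with the BMP targets, so the counts are not separate evidence. Outside that shared group, the forkhead factor foxi4.2.L of the epidermal progenitors read 2690.3, 4288 and 1531 in uninjected and 889.8, 1303 and 601 in injected arrays and fell by 1.74 ± 0.17. The grainyhead factors of the outer layer followed, grhl3.L at -1.65 ± 0.20 and grhl1.L at -1.33 ± 0.23. The zinc finger repressor prdm1.S (Blimp1) read 218, 434 and 165 and then 39.9, 52.8 and 19.9, with pair differences of -2.14, -2.4 and -2.14. Its brighter probe set, which stands for it in the list, had pair differences of -2.16, -2.43 and -1.69. Regulators that did not pass included klf5.S at 0.03 ± 0.20 and ets2.S at 0.12 ± 0.20.

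Of 11 keratin genes above the filter, 6 were lower, and the other 12 of 23 on the array were too dim to test. The falls included the embryonic epidermal keratins of the krt12 group. For krt12.5.S the arrays read 595, 420.3 and 93.9 uninjected and 102, 26.3 and 17.4 injected, a change of -2.33 ± 0.21. It was the one fall of ranks 11 to 40 in which the normalised levels of the groups overlapped, with uninjected experiment 3 (6.91) just under injected experiment 1 (7.01). The fall of krt12.4.S was -2.1 ± 0.25 and that of krt7.L was -1.01 ± 0.12. Among those that did not pass were the simple-epithelium pair, with krt8.1.S at 0.10 ± 0.14 and krt18.1.S at 0.09 ± 0.15. Cell junction genes stood near the background, with 2 of 38 lower and 2 higher: the tight junction gene cldn4.L (at -0.75 ± 0.09) and cdh1.S, which encodes E-cadherin (at -1.14 ± 0.21), against both copies of cldn5 (up by 0.97 ± 0.15 and 0.82 ± 0.18). Of the genes of specialised epidermal cells, 2 of 19 multiciliated, 1 of 10 ionocyte and 1 of 7 mucus genes were lower and the others did not pass. In the cement gland, the mucus organ at the front of the head, ag1.L fell, at -2.37 ± 0.31, and ag1.S at -1.0 ± 0.28. Calls that needed all 3 experiments, with the log2 change left in brackets, failed without experiment 2 for cdh1.S (-0.82) and without experiment 1 or 2 for cldn5.L (0.71, 0.74) and ag1.S (-0.64, -0.94). With 1 experiment left out, 0 to 2 multiciliated, 0 or 1 ionocyte and 1 or 2 mucus genes were lower.

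Genes of the neural border and of the neural plate were also lower. Of 24 border, crest and placode genes, 14 were lower and 1 higher, with a median of -0.89. Several of them also serve as BMP targets. Among those that are not, pax3.L, a paired-box factor of the border, fell, at -1.17 ± 0.16, hesx1.L, a homeobox gene of the anterior plate, at -1.19 ± 0.21, and kctd15.L, known in zebrafish to limit neural crest formation, at -1.53 ± 0.23. The one rise was myc.S, at 0.79 ± 0.19, while myc.L was at -0.45 ± 0.18 and did not pass. Of 26 neural plate genes, 12 were lower and 1 higher, with a median of -0.41. The Iroquois factor irx1.L read 241, 526 and 169 in uninjected and 46.6, 91.7 and 34.1 in injected arrays, a change of -2.02 ± 0.17, and irx2.L fell by 1.91 ± 0.17. The zinc finger gene sall1.L read 304, 611 and 255 and then 30.1, 120.5 and 46.8, and its groups did not overlap. Another probe set, which stands for sall1.L in the list, was at -1.99 ± 0.19. The plate factors sox2.L, lhx5.S and meis3.S fell, at -1.38 ± 0.16, -1.68 ± 0.23 and -1.36 ± 0.17, and zic1.S fell, at -1.16 ± 0.20. The copy meis3.L, at -0.31 ± 0.21, did not pass. Against these falls, zic2.L, another zinc finger gene of the plate, rose by 0.84 ± 0.24 with an adjusted p of 0.0495, and sox3.S, which did not pass, was at 0.49 ± 0.20. In the 16 genes of neuronal differentiation 2 were lower and 4 higher. Of the 4, 1 was rnd1.L, whose other, dimmer probe set was lower, at -1.15 ± 0.16. Its other copy, rnd1.S, was 1 of the 2 falls. The rises included insm1.L, a zinc finger gene of early neurons, by 1.21 ± 0.26, and nefl.L, a neurofilament gene, by 0.94 ± 0.19, beside a fall of the RNA-binding gene elavl3.L, at -1.31 ± 0.25. With fewer arrays the adjusted p rose past the threshold, at the log2 change in brackets, without any 1 of the 3 experiments for zic2.L (0.82, 0.81, 0.90) and insm1.L (1.12, 1.27, 1.24), without experiment 2 or 3 for myc.S (0.68, 0.62) and nefl.L (0.83, 0.91) and without experiment 2 for elavl3.L (-0.98). Of the 4 neuronal genes, 1 or 2 were higher with 1 experiment left out.

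In the Notch pathway, by which neighbouring cells hold each other back from the same fate, 8 of 23 genes were lower and 1 higher, with a median of -0.33. The ligands were among the falls. The ligand dll1.L read 482, 1020.3 and 326 in uninjected and 81.7, 91.0 and 104 in injected arrays, and the change was -2.41 ± 0.25. A second Delta, dlc.L, fell, at -2.15 ± 0.24, and the Serrate-type ligand jag1.L at -0.97 ± 0.17. Of the 10 Hes and Hey genes, many of them nuclear targets of the pathway, 3 were lower, with hes5.1.L at -1.86 ± 0.42, hes5.2.L at -1.59 ± 0.21 and hes4.L at -0.97 ± 0.15. Another, hes2.L, rose by 0.75 ± 0.18, and 6 did not pass, among them hes1.L at 0.83 ± 0.31. Receptor and nuclear partner did not pass, notch1.S being at -0.07 ± 0.15 and rbpj.S at -0.16 ± 0.18. The stress and growth-arrest gene gadd45g.L in the same list fell, at -2.21 ± 0.25, and gadd45g.S at -1.23 ± 0.17. Both copies count among the 8 and again among the falls of the DNA damage list. The call was lost, at the log2 changes in brackets, without experiment 2 for jag1.L (-0.93) and without any 1 of the 3 experiments for hes5.1.L (-2.04, -1.6, -1.94) and hes2.L (0.87, 0.79, 0.58).

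Receptors and feedback genes of other pathways changed in smaller numbers. Of 28 FGF and MAPK genes 6 were lower, led by the receptor copies fgfr4.S (-1.6 ± 0.16) and fgfr4.L (-1.54 ± 0.18) and the MAPK phosphatase dusp1.L (-1.01 ± 0.16). The copy dusp1.S, at -0.30 ± 0.21, did not pass. In the retinoic acid pathway 4 of 16 were lower and 1 higher. The receptor rarg.S read 1197, 2391 and 1203 uninjected and 577, 1062 and 536 injected and fell, at -1.24 ± 0.12. Also lower were the retinal-making rdh10.L (-0.98 ± 0.14), the retinal-reducing dhrs3.L (-1.55 ± 0.21) and the retinoic acid-degrading cyp26a1.S (-1.28 ± 0.20). The rise was in another receptor gene, rxrg.L, by 0.56 ± 0.16. The copies rdh10.S (-0.32 ± 0.16) and cyp26a1.L (-0.28 ± 0.18) did not pass, and the list median was 0.02. Of 48 Wnt genes 7 were lower and 3 higher, with a median of -0.13. The falls there included tcf7l1.L, a DNA-binding partner of beta-catenin, at -0.92 ± 0.15, and the receptors ror2.L and fzd2.S at -1.05 ± 0.23 and -0.68 ± 0.16, and the rises held the corepressor tle4.S, by 0.70 ± 0.19. Of 21 Hedgehog, Hippo and Eph genes 3 were lower and 1 higher (14.3% and 4.76%). The Hippo factor tead4.S fell, at -1.73 ± 0.20, and the ephrins efna1.L and efna4.L at -1.14 ± 0.19 and -1.05 ± 0.18. The rise was in ccn1.S, by 0.95 ± 0.19. With 1 experiment left out, 3 of these genes were lower and 0 or 1 higher. None of 14 Nodal and Activin genes passed in limma, where 1 lower and 2 higher ones had an unadjusted p under 0.05, and the smallest adjusted p was 0.168, for gdf1.S. At the log2 changes in brackets, the threshold was missed without experiment 1 or 2 for ror2.L (-1.05, -0.85) and without any 1 of the 3 experiments for fzd2.S (-0.69, -0.66, -0.68) and tle4.S (0.67, 0.74, 0.69). With 1 experiment left out, 3 or 4 of the FGF genes and 3 or 4 of the Wnt genes were lower, and 0 or 1 Wnt and 0 retinoic acid genes were higher.

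Genes of an uncommitted state were split. Of 23 pluripotency genes, 10 were lower and 3 higher (43.5% and 13.0%, against 7.0% and 3.84% of all named genes). The lower ones other than pou5f3.1.L also stand in the BMP target, neural plate or Wnt lists. The counts are thus not separate evidence. The POU factor pou5f3.1.L, one of the frog's Oct4 relatives, fell by 1.34 ± 0.16 from 2339.5, 3745 and 1724 to 953, 1258 and 1068. Its maternal relative pou5f3.3.L rose instead, from 455, 1023 and 1353 to 838, 2598 and 2139.5, by 1.12 ± 0.29, and pou5f3.2.L, at -0.12 ± 0.12, did not pass. The other higher genes were dppa2.L, by 0.58 ± 0.12, and the myc.S named above. Calls that needed all 3 experiments, with the log2 change left in brackets, failed without any 1 of the 3 experiments for pou5f3.3.L (1.2, 0.86, 1.3), dppa2.L (0.59, 0.58, 0.58) and myod1.L (0.81, 0.90, 0.80) and without experiment 2 or 3 for myc.S (0.68, 0.62). With 1 experiment left out, 0 or 1 of the pluripotency genes was higher. Among genes of other germ layers, 3 of 19 mesoderm and organizer genes were lower (bmp4.S and both szl copies) and 1 higher, the muscle factor myod1.L. It read 13.7, 36.9 and 24.3 in uninjected and 39.2, 85.5 and 63.8 in injected arrays, a rise by 0.84 ± 0.18 from a dim start. Of 16 endoderm and vegetal maternal genes 2 were higher and 1 lower, with a median of -0.007. With 1 experiment left out, 0 or 1 of them was higher and 0 or 1 lower. The endoderm factor sox17b.1.S, also dim, read 15.6, 16.9 and 28.9 and then 37.2, 85.4 and 96.6, a rise by 1.05 ± 0.17. Its other probe set, which stands for it in the list, rose by 0.83 ± 0.18. The mesoderm marker sums, of deposited intensities, went from 83.8 to 91.0, from 122.7 to 197.0 and from 62.0 to 132.1 in experiments 1 to 3. The endoderm marker sums went from 145.1 to 180.2, from 210.9 to 402.8 and from 172.4 to 339.9. Both were higher in the injected array of every pair. These sums include the probe sets of both genes, and the mesoderm marker tbxt.S was at -0.12 ± 0.21 and the endoderm marker gata6.L at -0.11 ± 0.21, neither of which passed. Whether a few cells of these layers in the caps have a part in it was not tested.

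Several regulators of entry into the cell cycle fell. Of 45 G1 and S phase genes, 11 were lower and 3 higher (24.4% and 6.67%), with a median of -0.18. Over all named genes these shares were 7.0% and 3.84%. The D-type cyclin ccnd1.L, which drives entry into S phase, read 318, 957 and 274 in uninjected and 65.2, 155 and 60.5 in injected arrays and fell by 2.19 ± 0.23, with ccnd1.S at -1.97 ± 0.25. The MYC antagonist mxi1.L fell, at -1.87 ± 0.17, the antiproliferative gene btg1.L at -1.25 ± 0.16, and the Cdk subunits cks2.L and cks1b.S at -0.90 ± 0.12 and -0.78 ± 0.12. The copy btg1.S, at 0.18 ± 0.15, did not pass. The rises were ccng2.L, a cyclin of arrested cells, by 0.93 ± 0.15, e2f1.L, by 0.83 ± 0.19, and myc.S. Of 67 replication and licensing genes 2 were lower and 4 higher (3.0% and 5.97%), and 1 of the 4 was the injected gene. The others were the origin-firing kinase cdc7.L, by 0.71 ± 0.18, the origin complex subunit orc4.L, by 0.81 ± 0.22, and the helicase subunit mcm7.L, by 0.30 ± 0.09. The zygotic helicase subunit zmcm3.L fell, at -0.49 ± 0.13, and mcm6.2.L at -0.71 ± 0.16. The copy mcm6.2.S, at -0.03 ± 0.18, did not pass. Geminin's own partner cdt1.L was at 0.30 ± 0.14 and did not pass. With fewer arrays the adjusted p rose past the threshold, at the log2 change in brackets, without any 1 of the 3 experiments for e2f1.L (0.73, 0.82, 0.93), cdc7.L (0.71, 0.78, 0.64), mcm7.L (0.34, 0.26, 0.31) and zmcm3.L (-0.42, -0.52, -0.53) and without experiment 2 or 3 for myc.S (0.68, 0.62), orc4.L (0.67, 0.56) and mcm6.2.L (-0.56, -0.72). With 1 experiment left out, 7 or 8 G1 and S phase genes were lower and 1 or 2 higher, and 0 or 1 replication genes were lower and 1 or 2 higher.

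Supply and translation genes gave many small falls and a few large ones. Of 123 solute carrier and ion transport genes 14 were lower and 1 higher, beside a list median of 0.07. These shares, 11.4% and 0.813%, compare with 7.0% and 3.84% of all named genes. The glucose carrier slc2a2.L read 487, 877 and 299.6 in uninjected and 97.2, 99.9 and 78.0 in injected arrays, a change of -2.3 ± 0.20 with no overlap. The sodium pump subunit atp1b2.L and the organic cation carrier slc22a4.L fell, at -1.57 ± 0.22 and -1.76 ± 0.20, and the amino acid carriers slc38a2.L and slc7a3.L at -1.42 ± 0.22 and -0.98 ± 0.14. The exception was the heme carrier slc48a1.S, up by 1.19 ± 0.17. Of 24 genes of arginine and polyamine metabolism 5 were lower and 4 higher, and the falls included azin2.S, an antizyme inhibitor, at -1.08 ± 0.15, and asl.L, which makes arginine, at -0.85 ± 0.23. Ribosomal protein genes were lower in 18 of 72, each by little: the largest of the 18 falls was -0.69 ± 0.11 in rpl31.S. Their list median was -0.13, at -0.29, -0.03 and -0.12 in experiments 1 to 3. The number lower was 7 to 10 with 1 experiment left out, and 6 without the intensity trend of the limma fit. Of the cytoskeleton genes, 8 of 71 were lower and 3 higher (11.3% and 4.2%). The calponin genes cnn2.S and cnn2.L fell, at -1.4 ± 0.15 and -1.18 ± 0.19, and the small GTPase gene rhou.L at -1.55 ± 0.23. The call was lost, at the log2 changes in brackets, without experiment 1 or 2 for asl.L (-0.77, -0.60). Without 1 experiment 8 to 12 of the carriers and 4 to 6 of the cytoskeleton genes were lower, and 1 or 2 of the cytoskeleton and 2 of the arginine and polyamine genes higher.

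The rises beyond the 10 largest were near 2-fold, from 1.3 to 1.0 on the log2 scale for ranks 11 to 40. Among inhibitors of apoptosis, birc7.S read 129.8, 209 and 283 in uninjected and 264, 619 and 640.0 in injected arrays, a rise by 1.27 ± 0.19, and birc5.L (Survivin) rose by 1.15 ± 0.20. The copy birc5.S, at 0.435 ± 0.14, did not pass. The probe set annotated birc7-b, the largest rise after the first 10, rose by 1.3 ± 0.18. The related birc2.S fell instead, at -2.01 ± 0.39, with pair differences of -3.16, -2.49 and -0.38. The other copy, birc2.L, was at 0.03 ± 0.17 and did not pass. Among falls of at least 2-fold with an informative symbol, birc2.S was the one in which the experiments differed most. Of the 27 apoptosis genes only birc7.S, birc5.L and birc2.S, 3 in all, passed, and none of the caspase genes was among them. The shares were 7.41% higher and 3.7% lower, against 3.84% and 7.0% of all named genes. The kinase pim3.L, of a family that promotes survival, read 171, 193 and 341 and then 375, 517 and 740.2, and its rise was 1.23 ± 0.19, while its relative pim1.L fell by 2.1 ± 0.24. The mitochondrial superoxide dismutase sod2.S read 107, 117 and 70.8 uninjected and 190.4, 376 and 210.1 injected and rose by 1.25 ± 0.22. The serine incorporator serinc2.L, at 76.9, 154 and 153 and then 177, 413 and 408, rose by 1.29 ± 0.16 with pair differences of 1.19, 1.3 and 1.4. At the log2 changes in brackets, the threshold was missed without experiment 2 for birc5.L (0.90) and sod2.S (1.13) and without experiment 1 or 2 for birc2.S (-1.43, -1.77).

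Regulators of meiosis and mitosis were found among rises and falls. Of 84 mitotic genes 9 were higher and 6 lower (10.7% and 7.14%). Over all named genes 3.84% were higher and 7.0% lower, so the share of falls was near the background. The anaphase inhibitor fbxo43.L (Emi2), which holds the frog egg in metaphase, read 63.9, 51.5 and 48.8 in uninjected and 143, 163 and 157 in injected arrays, a rise by 1.21 ± 0.17 with no overlap. The egg forms of the Cdk inhibitor kinase and of cyclin A went the same way, with wee2.L up by 1.04 ± 0.16, wee2.S by 0.92 ± 0.20 and ccna1.S by 0.99 ± 0.22, and ccnb1.S rose by 1.12 ± 0.27. Lower were the B-type cyclin copies ccnb3.L (-1.12 ± 0.15) and ccnb3.S (-1.02 ± 0.14), the kinase wee1.S (-0.62 ± 0.17), cdk1.S (-0.59 ± 0.15) and the topoisomerase top2a.L (-0.93 ± 0.19). Among 65 genes of RNA decay and of maternal RNA control 7 were lower and 5 higher (10.8% and 7.69%). Several members of the zfp36 family, which bind AU-rich messages and shorten their life, fell: zfp36l1.S at -1.96 ± 0.22, zfp36l2.S at -1.12 ± 0.14 and zfp36.L at -0.86 ± 0.19. Other relatives, zfp36l2.1.S and zfp36l2.2.L, were among the 10 largest rises. Also higher were btg4.L, known in mouse as an adaptor that clears maternal messages, up by 1.36 ± 0.25, and lsm14b.L, a gene of oocyte RNA granules, by 0.74 ± 0.15. The oocyte translation gene zar2.S, listed in neither group, read 182, 226 and 191 and then 276, 637 and 449, a rise by 1.1 ± 0.20. Calls that needed all 3 experiments, with the log2 change left in brackets, failed without any 1 of the 3 experiments for wee2.S (1.03, 0.80, 0.92), wee1.S (-0.46, -0.69, -0.69), cdk1.S (-0.68, -0.40, -0.69) and zfp36.L (-0.81, -0.96, -0.82), without experiment 2 for ccna1.S (0.68), btg4.L (1.13) and zar2.S (0.92) and without experiment 1 or 2 for ccnb1.S (1.1, 0.93), top2a.L (-0.98, -0.69) and lsm14b.L (0.71, 0.67). With 1 experiment left out 3 to 5 mitotic genes were higher and 2 to 4 lower, and 2 to 4 RNA control genes were higher and 3 to 6 lower.

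Of 67 genes of DNA damage and repair 7 were higher and 4 lower (10.4% and 5.97%, against 3.84% and 7.0% of all named genes). The share of falls was near the background. The rises included dclre1a.L, a nuclease of crosslink repair, by 1.31 ± 0.17, and chek1.S, the checkpoint kinase, by 0.81 ± 0.18, and rpain, which carries replication protein A into the nucleus, in both copies (rpain.S by 1.53 ± 0.18, rpain.L by 0.51 ± 0.15). The falls were both copies of gadd45g, gadd45a.S (-1.55 ± 0.22) and parp1.L (-0.97 ± 0.15). Of 56 genes of tRNA and ribosomal RNA processing, 6 were lower and 1 higher (10.7% and 1.79%). The lower ones included utp15.L (-1.0 ± 0.15) and nop58.S (-0.71 ± 0.11), both of early ribosome assembly. Chromatin regulators were near the background, with 4 of 75 lower and 3 higher, the histone acetyltransferase kat7.L being at -1.14 ± 0.19 and the arginine methyltransferase prmt5.L at 0.98 ± 0.17. None of 4 Hox genes above the filter passed in limma, where 1 had an unadjusted p under 0.05, and 17 more were too dim to test. Of the respiratory chain genes 4 of 70 were lower and of the proteasome genes 5 of 49, near the 7.0% of all named genes. With fewer arrays the adjusted p rose past the threshold, at the log2 change in brackets, without any 1 of the 3 experiments for chek1.S (0.80, 0.82, 0.81) and rpain.L (0.49, 0.48, 0.56) and without experiment 2 for prmt5.L (0.79). Without 1 experiment 3 or 4 repair and 0 to 2 chromatin genes were higher. In the same fits 2 to 7 RNA processing, 2 or 3 chromatin, 0 to 2 respiratory chain and 2 or 3 proteasome genes were lower.

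**Figure D3:**
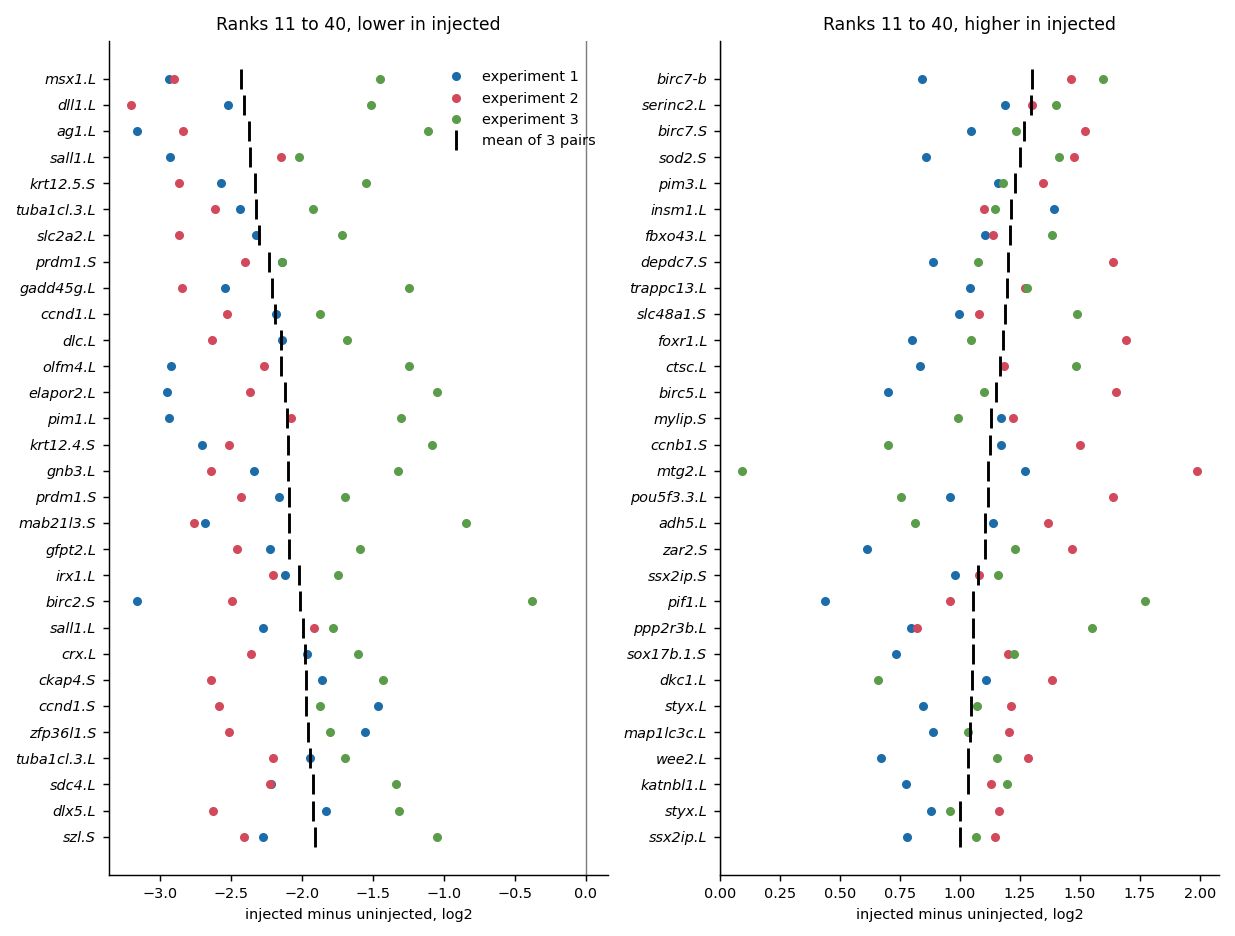
Injected minus uninjected, log2, in each of the 3 experiments for the probe sets at ranks 11 to 40 of the falls (left) and rises (right), with the mean of the pairs as a bar. Experiment 3 (green) gave the smallest fall in 27 of the 30 on the left, and experiment 1 (blue) the smallest rise in 23 of the 30 on the right.

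The 3 pairs agreed in sign for every one of the 820 lower and 385 higher probe sets, but not in size. The call rests on these same pairs and favours a shared sign, so this agreement is not separate evidence. Among the lower ones the median change was -0.98, -1.07 and -0.72 in experiments 1 to 3. Experiment 2 gave the largest fall in 428 of them and experiment 3 the smallest in 522. Among the higher ones the medians were 0.68, 0.87 and 0.70, with experiment 2 the largest in 212 and experiment 1 the smallest in 183. By these counts the experiment with the weakest change was not the same for falls and for rises. For rises, however, experiments 1 and 3 had close medians, and experiment 3 was the smallest in 141. The level of gmnn.L in injected arrays was lowest in experiment 3 and highest in experiment 2, at pair differences of 4.42, 5.96 and 3.43. Experiment 2 also lay on the brighter deposited scale, and the part of either in these sizes was not tested.

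A stricter count, without a model, asked for agreement of the 3 pairs at 1.5-fold or more. It held for 450 probe sets lower (3.87%) and 161 higher (1.39%), and at 2-fold for 159 lower (1.37%) and 21 higher (0.181%). Of the 820 lower probe sets 443 (54.0%) met the 1.5-fold count, against 153 (39.7%) of the 385 higher. Normalised levels of the groups did not overlap in 608 (74.1%) of the lower and 205 (53.2%) of the higher. Over all tested probe sets every injected array lay below every uninjected one in 963 (8.29%) and above in 792 (6.82%). At ranks 11 to 40 the groups did not overlap in 29 of 30 falls and 22 of 30 rises. One probe set with a mean rise of 2-fold did not pass: hebp2.S, a heme-binding protein gene, at pair differences of 0.41, 0.10 and 2.68, rested on experiment 3. The mean of mtg2.L, a mitochondrial GTPase gene, rested on experiments 1 and 2, with 1.27, 1.99 and 0.09. The elapor2.L and mab21l3.S falls were weakest in experiment 3, at -2.95, -2.36 and -1.04 and -2.68, -2.76 and -0.84. Beyond the 10 largest, the changes that were large in even their weakest pair were those of prdm1.S, sall1.L and tuba1cl.3.L among falls and of serinc2.L, pim3.L, fbxo43.L and insm1.L among rises. The call was lost, at the log2 changes in brackets, without any 1 of the 3 experiments for insm1.L (1.12, 1.27, 1.24) and without experiment 1 or 2 for mtg2.L (1.04, 0.68). For fbxo43.L, the pair differences were 1.11, 1.14 and 1.39.

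**Figure D4:**
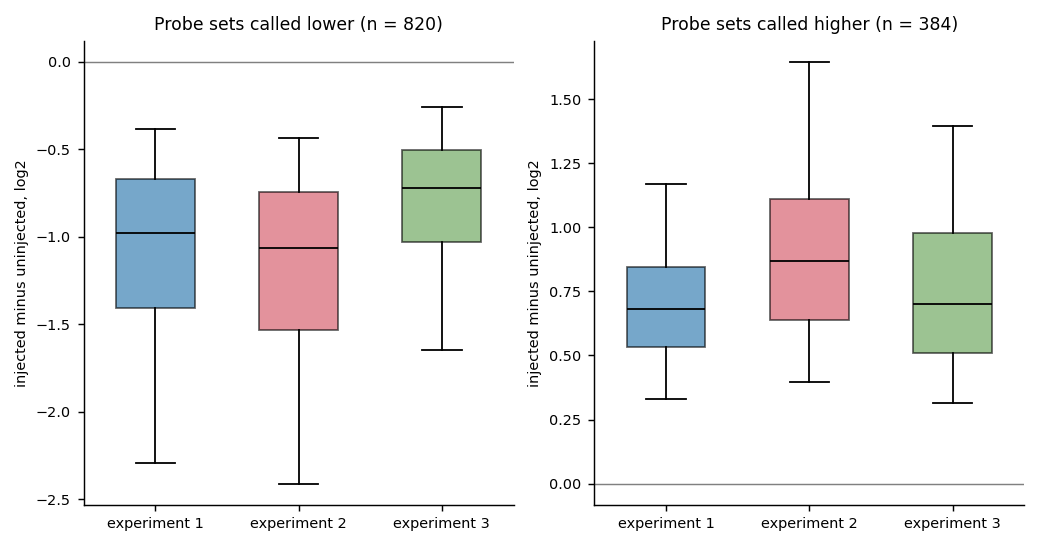
Injected minus uninjected, log2, in each experiment over the probe sets that were lower (left) and higher (right, without gmnn.L). The box spans the quartiles, the line is the median and the whiskers reach the 5th and 95th percentile. The falls are smallest in experiment 3, with a median of -0.72 against -0.98 and -1.07, and the rises are largest in experiment 2, with a median of 0.87.

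The genome of this frog holds many genes as a long-chromosome (.L) and a short-chromosome (.S) copy, which gives a second reading of a gene with other probes, though probes may bind both copies. In 794 genes both copies were tested, and in 156 at least 1 passed. Both copies were lower in 36 and both higher in 13, only 1 copy passed in 106, and in 1 gene the copies went opposite ways. Where only 1 copy passed, the other had the same sign in 85 of 106, with a median size of 0.27 in the direction of the copy that passed, against 0.74 for that copy. Among genes with both copies lower, ccnd1 had like falls in both (-2.19 ± 0.23 and -1.97 ± 0.25), and krt70 did not, with -3.12 in krt70.L and -0.62 in krt70.S. The gene with opposite copies was rnd1, a small GTPase that loosens cell adhesion: rnd1.L rose by 0.96 ± 0.12 and rnd1.S fell by 0.90 ± 0.16. The rnd1.L reading itself depended on the probe set, since a dimmer one for the same copy was lower, at -1.15 ± 0.16. Of 984 genes with several probe sets, 155 had at least 1 that passed: all passed the same way in 35, some did not pass in 118, and 2 had opposite calls. The other of these 2 was rassf3.S, neither of whose calls held without any 1 of the 3 experiments, with probe sets at -0.88 ± 0.22 and 0.72 ± 0.17. For dkc1.L, the gene of a pseudouridine synthase, 1 probe set rose by 1.05 while 2 others did not pass. At the log2 changes in brackets, the threshold was missed without experiment 1 or 2 for dkc1.L (1.02, 0.89).

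**Figure D5:**
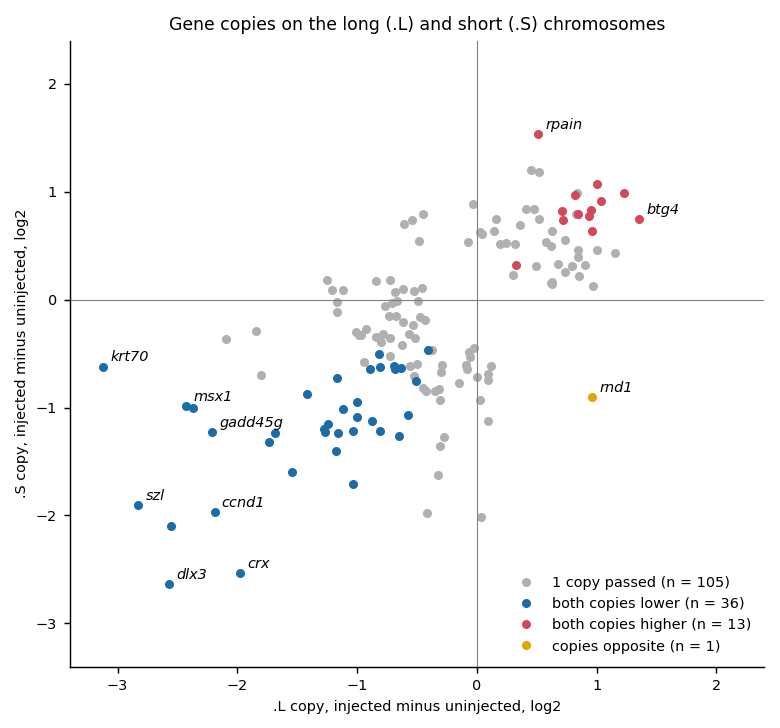
Change of the .S copy against the change of the .L copy, injected minus uninjected on the log2 scale, for genes with both copies tested and at least 1 passing, without gmnn. Blue points (36) are lower in both copies, red points (13) higher in both, grey points passed in 1 copy, and the yellow point is rnd1, with opposite copies.

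The same injection read at stage 12 shows which early changes differed later. The stage 12 arrays come with a limit: the library labelled uninjected, experiment 3 gave gmnn.L at 4576, against 115.5 and 278.0 in the other two uninjected arrays and 3203, 13754 and 13436 in the injected ones. At stage 12, 2048 probe sets (17.6%) were lower and 2733 (23.5%) higher. Of the falls at ranks 11 to 40, 27 of 30 were lower at stage 12 as well and the other 3 did not pass. Of the rises, 19 of 30 were higher, 10 did not pass and 1, fbxo43.L, was lower. The difference of the change itself, stage 12 minus stage 10.5, passed in 461 probe sets (3.97%) with a negative and 209 (1.80%) with a positive value. It passed for 5 of the 30 falls and 10 of the 30 rises, which were chosen for a large early change, and that change enters the difference. Early falls that were weaker later included prdm1.S, at -2.23 ± 0.19 early and -0.03 ± 0.19 late, crx.L, at -1.98 ± 0.18 and -0.04 ± 0.18, and irx1.L, at -2.02 ± 0.17 and -0.70 ± 0.17. For prdm1.S the uninjected level at stage 12, 5.31, left little room for a fall of the early size. The part of this in the difference was not tested. Its other probe set was at -2.09 early and -0.36 late. The rise of fbxo43.L, 1.21 ± 0.17 early, stood at -0.55 ± 0.17 late, and that of serinc2.L at 0.12 ± 0.16. In ccnb1.S the late change was larger, 3.36 ± 0.27, although its early call was lost without experiment 1 or 2. The neural plate gene zic1.S, lower early, was higher late, at 0.81 ± 0.20, and cyp26a1.S, at -1.28 ± 0.20 early, was at 0.80 ± 0.20. Without experiment 3 at stage 12, an alternative chosen after seeing the data, the stage difference passed in 588 with a negative and 445 with a positive value, and the early counts were 839 lower and 436 higher.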

How the data were processed

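Total RNA of ectoderm explants was read on 12 one-colour arrays. The authors deposited linear intensities, 1 per probe set and array. How probes were summarised, corrected for background and scaled is not given in the sources used. The number of arrays limits the precision.

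From the deposited intensities, log2(intensity + 16) was quantile normalised over the 12 arrays. Fold changes are on this scale, which understates changes of dim genes. The dimmest 25% by mean signal, 3873 of 15491 probe sets, were set aside, which left 11618. A single symbol was annotated to 9304 probe sets, several to 195 and none to 5992, and 9227 matched a current gene entry. No genome build is named, so no positions are given. Promoter motifs had been planned and were not run, because promoter sequences were not used here.

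Samples were grouped by title, stage and manipulation. Per the design text, injected and uninjected samples were paired by experiment and the whole experiment was repeated. Deviations from the group means of arrays of 1 pair correlated at 0.765 to 0.797, and those of other pairings at -0.511 to -0.23. Deviations within a group cancel out, so positive values within pairs make the other pairings negative on average. The negative values therefore add no evidence for the pairing. The model was fitted with limma 3.58.1 (R 4.3.3) by lmFit and trended eBayes over all 12 arrays, with the experiment within a stage as a block, 4 residual degrees of freedom, Benjamini-Hochberg adjustment and a threshold of 0.05. Each ± is limma's SE for a mean of 3 pairs, from the moderated spread pooled over both stages. The fit was tested on simulated data.

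Lists count 1 probe set per gene, the brightest, and copies marked .L and .S count as separate genes. A total of 94 genes are in several lists. Members and lists were chosen with earlier results of these data known. Named by rule were the gmnn probe sets, ranks 1 to 40 by log2 fold change in each direction among probe sets that passed with the same sign in all pairs and an informative symbol, up to 6 members of the smallest p per list, and the most and least even probe sets over the pairs. Alternatives were no block, other scalings, pseudocounts and filters, stage 10.5 arrays alone, no intensity trend and each experiment left out.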

Additional observations from a re-analysis of the deposited data

Results flagged for a closer look

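For 53 of the 240 named probe sets the change brought by the injection differed between stage 12 and stage 10.5 when that difference itself was tested in limma (adjusted p from 0.00166 to 0.0478). Over all 11618 tested probe sets it passed in 3.97% with a negative and in 1.80% with a positive value. Most of the named probe sets were chosen for a large change at stage 10.5, which itself enters this difference, so the choice favours smaller changes at stage 12. The gene prdm1.S appears with 2 probe sets. The values in brackets are the change at stage 12 minus the change at stage 10.5, on the log2 scale. Of the early falls, those that were smaller but still passed at stage 12 were rarg.S (0.66), cnn2.S (0.91), foxi4.2.L (1.0), sdc4.L (1.01), irx2.L (1.15), irx1.L (1.32), dlx3.S (1.42) and krt70.L (1.51). Early falls that did not pass at stage 12 were rps23.L (0.59), krt7.L (0.70), slc7a3.L (0.74), ccnb3.L (0.83), fzd2.S (0.86), cdk1.S (0.90), chd7.L (0.92), sds.L (0.93), sfrp2.S (0.95), gadd45g.S (1.02), cks1b.S (1.04), xbp1.L (1.06), dhrs3.L (1.15), ccnb3.S (1.18), rhou.L (1.43), hes5.2.L (1.56), prdm1.S (1.74), crx.L (1.94), prdm1.S (2.2) and crx.S (2.34). Early falls of genes that were higher at stage 12 were jag1.L (1.5), pdk4.S (1.67), zic1.S (1.97) and cyp26a1.S (2.08). The falls that were larger at stage 12 were plpp3.S (-1.8), slc38a2.L (-1.7), msx1.S (-1.01) and rdh10.L (-1.0). Of the early rises, those that did not pass at stage 12 were pif1.L (-1.56), zfp36l2.1.S (-1.42), slc48a1.S (-1.3), ccng2.L (-1.21), ppp2r3b.L (-1.19), serinc2.L (-1.18), sox17b.1.S (-1.05), hes2.L (-0.96), ssx2ip.L (-0.95) and styx.L (-0.92). Early rises of genes that were lower at stage 12 were fbxo43.L (-1.75), myc.S (-1.71) and orc4.L (-1.56). The rises that were larger at stage 12 were wee2.L (0.88), wee2.S (1.1), tsen54.L (1.45) and ccnb1.S (2.23). For styx.L, sox17b.1.S and tsen54.L another probe set did not pass this test, at adjusted p of 0.921, 0.314 and 0.384 in limma. That styx.L probe set was higher at stage 12 as well, at 0.95.

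For plpp3.S, slc38a2.L, msx1.S, sds.L, jag1.L, hes5.2.L, prdm1.S, zic1.S and crx.S the uninjected level at the other stage left little room for a fall of the same size, and the part of this in the difference was not tested. The library labelled uninjected, stage 12, experiment 3 carried a high gmnn.L signal. Without both its arrays, a choice made after seeing the data, the difference kept its sign in 53 of 53 and passed in 44. It no longer passed for hes2.L (-0.82), krt7.L (0.70), slc7a3.L (0.78), ccnb3.L (0.79), cdk1.S (0.85), sds.L (0.85), sfrp2.S (0.94), sdc4.L (1.04) and krt70.L (1.38). Groups of 3 arrays are too small for a test of outlying samples.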

How the results depend on the processing

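Without the replicate block 240 probe sets were lower and 22 higher, against 820 and 385, and the difference between stages passed in 30 with a negative and 4 with a positive value, against 461 and 209. With the arrays of 1 experiment left out, 389 to 625 were lower and 65 to 154 higher. Fitted on stage 10.5 arrays alone, 838 were higher. With a pseudocount of 1 the stage difference passed in 298 with a negative and 139 with a positive value, and without experiment 3 at stage 12, chosen after seeing the data, in 445 with a positive value, while 839 probe sets were lower and 436 higher. At least 1.5-fold in all pairs, 262 were lower and 71 higher with a pseudocount of 64, and 98 higher with the lowest 50% left out. Other counts of lower and higher probe sets stayed within 1.5 times. Of 240 named probe sets, 0 changed sign under any of these alternatives. The call was lost for 144 without the block, for 65, 91 and 49 without experiment 1, 2 and 3, and for 0 to 15 under the others. List medians near 0 have no settled sign: in 14 of 43 lists the median crossed 0 over these alternatives, as in the retinoic acid list (-0.324 to 0.063) and the BMP ligands and receptors (-0.072 to 0.07). Dim probe sets limit the list counts: 12 of 23 keratins and 17 of 21 Hox genes were not tested. The cause of these shifts was not tested.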
